A study of Mus musculus with 2 samples.

Results

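NK cells in the spleens of mice infected with LCMV-cl13, a persisting strain of lymphocytic choriomeningitis virus, were chosen by their own transcripts in a single cell RNA sequencing experiment. A barcode was taken when it held at least 1 UMI (a unique molecular identifier, which counts 1 captured RNA molecule) of *Ncr1*, an activating receptor gene, and *Klrb1c*, which encodes NK1.1, together, no UMI of *Cd3e*, *Cd3d*, *Cd3g*, *Cd79a* or *Siglech*, at most 1 UMI of *Lyz2* and fewer than 5 UMIs of *Mzb1*. Applied to the first deposited run, this rule found 86 NK barcodes among 23397, in a series of 43965 barcodes over 2 runs. The mice were C57BL/6 animals with the wild type *Ptpn22* gene (PEP-WT) or homozygous for the murine ortholog of the autoimmunity associated *PTPN22* allele, introduced by CRISPR/Cas9 (PEP-619WW). Mice of both genotypes received 1000000 PFU of the virus, and spleens were taken at day 8 after infection. Mice were 6 to 12 weeks old across the study, both sexes were used, and no uninfected mice were sequenced in these libraries. For each genotype, splenocytes of 4 to 5 mice were pooled and sorted for live CD45+ cells before 10x Genomics capture, so that 1 library stood for each genotype and no replicate error could be computed. This design is that of the Methods, whose barcode numbers are those of the second deposited run. The first run, on which all values below rest, is tied to the same samples by its deposit only, and its origin was not settled.

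NK cells are cytotoxic innate lymphocytes that lack a rearranged antigen receptor and read germline-encoded receptors instead. Activating receptors signal through adaptors such as DAP12 and the Fc receptor gamma chain, and inhibitory receptors, many of which bind MHC class I, hold them back. NK cells kill by releasing perforin and granzymes and secrete IFNγ and chemokines, and during virus infection they act on infected cells and on T cells. PEP, the phosphatase encoded by *Ptpn22*, is known for dampening signaling through Src family kinases and ZAP-70 in lymphocytes.

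The sample labels named liver, a human T cell line and tumor infiltrating cells, whereas the Methods of the study describe splenocytes. None of 8 melanocyte and hepatocyte marker genes had a UMI in the NK barcodes. These genes mark other cells, so their absence from NK barcodes does not settle the tissue. The libraries held 77916082 UMIs in 14821 PEP-WT barcodes and 56745578 UMIs in 8576 PEP-619WW barcodes, with medians of 2832 and 3293 UMIs, and 39 barcode sequences occurred in both. Background shares were taken in B cell barcodes (*Cd79a* and *Ms4a1* above 0, without *Ncr1* or *Klrb1c*), which numbered 6908 and 3119. No limit was set on genes of other lineages, and single B cell barcodes held up to 160 and 272 UMIs of T cell genes. Free RNA and doublets therefore cannot be told apart in these shares.

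The 50 PEP-WT NK barcodes held 181273 UMIs (701 to 18668 per barcode, median 2953.5), and the 36 PEP-619WW NK barcodes held 139546 (911 to 9946, median 3805.5). Precision was therefore set by few cells, and all intervals given are 95% intervals of counting error only. Levels are UMIs summed over the NK barcodes of a library and divided by the total UMIs of those barcodes, per 1000000 (CPM). NK barcodes made up 0.337% of all PEP-WT barcodes (0.250 to 0.445, exact Clopper-Pearson interval) and 0.420% of PEP-619WW barcodes (0.294 to 0.581). They differed by 0.0824 percentage points (-0.0757 to 0.263), which was not detectable at this depth. Among barcodes with a UMI of *Ptprc*, which encodes CD45, the shares were 0.434% and 0.526%.

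Of the barcodes with a UMI of either marker, 232 in PEP-WT and 189 in PEP-619WW, most lay outside the rule because they held CD3 transcripts (159 and 139). Both markers were found in 35 PEP-WT and 23 PEP-619WW NK barcodes, *Ncr1* alone in 7 and 1, and *Klrb1c* alone in 8 and 12. Just inside the rule were 7 barcodes of each genotype with a single marker UMI. They held *Gzma* at 3429 and 6032 CPM, against 16166 and 18467 CPM in the other members, and *Tyrobp* at 707 and 808 CPM against 2684 and 2713. *Igkc* was at 681 CPM in those of PEP-WT and 41542 CPM in those of PEP-619WW, against 1041 and 2802 CPM in the other members. *Gzma* and *Tyrobp* were thus lower in these barcodes in both genotypes, and *Igkc* was higher in PEP-619WW. *Gzma* was detected in 5 of the 7 in PEP-WT and 4 of the 7 in PEP-619WW. The PEP-WT levels include the deepest NK barcode, with 18668 UMIs and none of *Gzma* or *Tyrobp*, which lowers them. Just outside were 10 PEP-WT and 3 PEP-619WW barcodes with 1 CD3 UMI, which held *Gzma* at 18709 and 11910 CPM and no *Cd8b1*. Barcodes outside by at least 2 CD3 UMIs held *Cd8b1* at 745 and 667 CPM, as T cells do.

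The identity of the 86 barcodes was checked on genes the rule did not use. *Tyrobp*, which encodes DAP12, was detected in 46 of 50 PEP-WT and 32 of 36 PEP-619WW NK barcodes, against 16.1% and 18.7% of B cell barcodes. *Fcer1g*, the Fc receptor gamma chain, was detected in 49 and 35 of them, against 11.6% and 16.5% of B cell barcodes. *Gzma*, which encodes granzyme A, was detected in 40 and 31 NK barcodes, and in 2.65% and 3.37% of B cell barcodes. The receptor gene *Klrk1* (NKG2D) was found in 44 and 32, *Klre1* in 39 and 27, *Prf1* (perforin) in 38 and 29 and *Il2rb*, the receptor chain for IL-2 and IL-15, in 42 and 32. The transcription factor gene *Tbx21* was detected in 23 and 14 barcodes, *Eomes* in 11 and 15 and the integrin gene *Itga2* in 9 and 11. At 1000 UMIs per barcode, which 49 and 35 NK barcodes reached, the *Tyrobp* shares were 83.7% and 82.9% against 6.79% and 7.53% of B cell barcodes. All 10 checked genes were thus found in larger shares of NK than of B cell barcodes, and the name NK is used for the set, although not for every barcode in it. The 10 PEP-WT barcodes without a *Gzma* UMI held 63194 of the 181273 UMIs (34.9%), and the 5 of PEP-619WW 13027 of 139546 (9.34%). The deepest PEP-WT barcode, with 18668 UMIs or 10.3% of the total, entered through 1 *Klrb1c* UMI and held none of the 10 checked genes, but 46 UMIs of *Hist1h1b*, a linker histone gene, 14 of *Mki67* and 21 of *Isg15*. Its own genes thus go against the name NK, and the genotype ratios of *Hist1h1b* and *Isg15* are given below with and without the deepest barcode of each library. The deepest PEP-619WW barcode, with 9946 UMIs, held 8 of the 10 checked genes.

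To show which genes set NK cells apart from the other cytotoxic lymphocytes of the same libraries, NK barcodes were compared with effector CD8 T barcodes, which held UMIs of *Cd3e*, *Cd8b1* and *Gzmb* and numbered 952 in PEP-WT and 826 in PEP-619WW. The rules of both cell types chose the barcodes, so all values of this contrast are descriptive and no test was made. The effector CD8 T barcodes were deeper, with medians of 6995 and 8974.5 UMIs, and the rule for them set no limits on other lineages. A second set of effector CD8 T barcodes with the *Cd79a*, *Siglech*, *Lyz2* and *Mzb1* limits of the NK rule, 594 and 515 in number, is therefore given beside it. A gene was called when it differed at least 2-fold in the same direction in both libraries with both intervals past 0. Of 11877 genes with at least 20 UMIs, 424 or 3.57% were called, 249 (2.1%) higher and 175 (1.47%) lower in NK. With the limited CD8 barcodes, 358 or 3.56% of 10067 genes were called, 227 (2.25%) higher and 131 (1.3%) lower. Of these, 159 and 90 were shared with the first set. By gene list, the limited set gave 8 higher and 2 lower among activating receptors, 9 and 4 among inhibitory receptors, 6 and 3 among adaptors and kinases, and 2 and 1 among cytokines and chemokines. It gave 4 and 2 among trafficking genes, 2 and 4 among transcription factors, 6 and 3 among maturation genes, and none higher among T cell genes (12 lower) and G2 and M phase genes (16 lower). Of 10 erythroid markers, genes of another cell type, 3 were higher in NK against the first set, 5 against the limited set and none lower. Over all tested genes the median log2 ratio was 0.18 in PEP-WT and 0.22 in PEP-619WW. Scaling by the median of ratios moved it to 0.01 and 0.03 and turned the split to 187 higher and 236 lower, while CPM without immunoglobulin, hemoglobin, mitochondrial and ribosomal protein genes gave 211 higher and 216 lower.

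**Figure D1:**
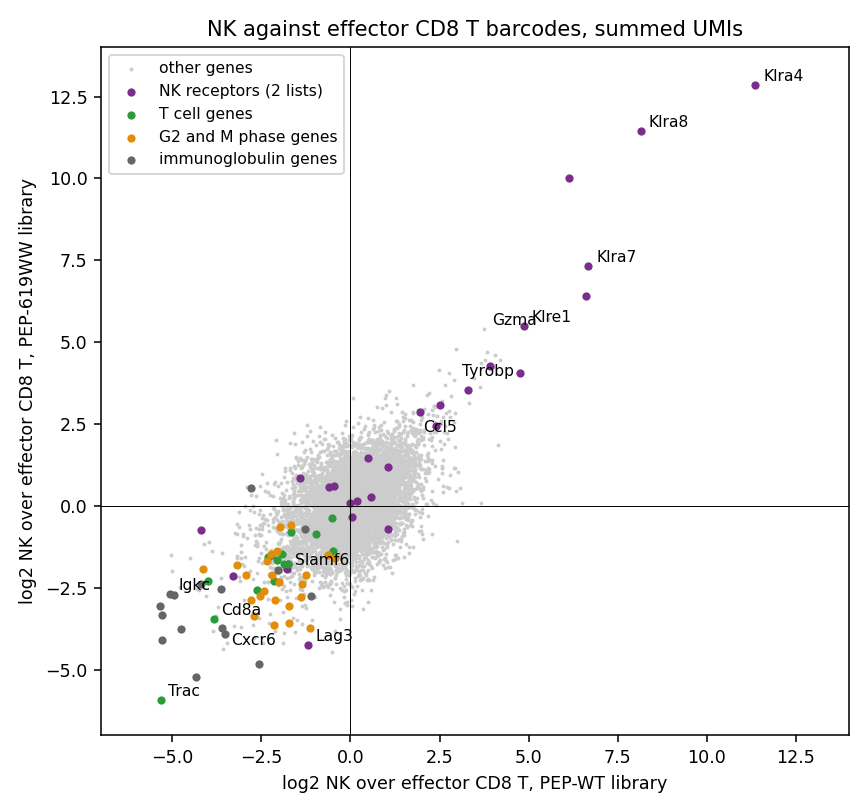
Each point is a gene, with the log2 ratio of NK to effector CD8 T barcodes in the PEP-WT library on the x axis and in the PEP-619WW library on the y axis, from UMIs summed over barcodes, and colored points mark gene groups. Receptor genes of the NK gene complex lie at the upper right, with *Klra4* at 11.37 and 12.86, and *Trac* lies at the lower left at -5.33 and -5.92.

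The plot of the NK to effector CD8 T ratio in both libraries shows that receptor genes led the genes higher in NK. Of the 12 with the largest mean ratio, 7 encode lectin-like receptors of the NK gene complex (*Klra4*, *Klra8*, *Klra9*, *Klra7*, *Klra3*, *Klrb1f* and *Klre1*). The others were *Gzma*, *Itga2*, the sodium pump subunit gene *Atp1b1*, the signaling inhibitor gene *Spry2* and *Samd3*. *Atp1b1* was at 270 CPM in PEP-WT NK and 179 CPM in PEP-619WW NK, against 5.77 and 3.43 CPM in effector CD8 T barcodes. *Spry2* was at 99.3 and 136 CPM against 5.39 and 6.15, and *Samd3* at 77.2 and 93.2 CPM against 5.39 and 3.60. For these 3 genes the order was the same against the limited CD8 barcodes, with log2 ratios of 3.17 or more in both libraries.

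Among activating receptors, 7 of 14 tested genes were called higher and 1 lower in NK. *Klra4*, which encodes Ly49D, was at 508 CPM (409 to 622) in PEP-WT NK and 652 CPM (525 to 801) in PEP-619WW NK. In effector CD8 T barcodes it had 2 and 1 UMIs, and the log2 ratios were 11.37 (9.47 to 14.43) and 12.86 (10.34 to 18.18). *Klra8* encodes Ly49H, best known for recognizing a protein of mouse cytomegalovirus. It was at 519 CPM (419 to 635) and 731 CPM (596 to 887) in NK, against 1.83 CPM in PEP-WT effector CD8 T barcodes and no UMI in those of PEP-619WW. The log2 ratio was 8.15 in PEP-WT and at least 11.44 in PEP-619WW, taken against a floor of 3 UMIs. *Klrk1*, which encodes NKG2D and is also used by CD8 T cells, differed less: 679 and 867 CPM in NK against 118 and 103 CPM, log2 ratios of 2.52 and 3.07. *Klrb1a*, *Klrb1f*, *Klrc2* (NKG2C) and *Cd244a* (2B4) were the other called genes, with *Cd244a* at 160 and 158 CPM against 10.6 and 8.17. *Slamf6*, a receptor also used by T cells, was the gene called lower, with no UMI in PEP-WT NK and 14.3 CPM in PEP-619WW NK against 57.0 and 54.5 CPM.

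Among inhibitory receptors, 10 of 18 tested genes were called higher and 4 lower in NK. *Klrd1* encodes CD94, the partner chain of the NKG2 receptors, and had the highest level of the group at 965 and 1319 CPM, against 183 and 242 CPM in effector CD8 T barcodes. *Klre1* was at 480 and 451 CPM against 16.4 and 10.0 CPM, with log2 ratios of 4.87 and 5.49. *Klrg1*, which marks mature NK cells and short-lived effector T cells, was at 182 and 236 CPM against 47.1 and 32.6. The 4 genes lower in NK were the T cell checkpoint genes *Pdcd1* (PD-1), *Ctla4*, *Havcr2* (TIM-3) and *Lag3*. *Pdcd1* had no UMI in any NK barcode and was at 78.5 and 60.5 CPM in effector CD8 T barcodes. *Lag3* was at 44.1 and 7.17 CPM in NK against 100.5 and 137 CPM. The NK barcodes thus held germline-encoded receptor transcripts at higher and several checkpoint transcripts at lower levels than the effector CD8 T barcodes.

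The Ly49 (*Klra*) genes were among those with the largest ratios. In GENCODE vM21 on GRCm38, 10 of the 11 genes lie on chromosome 6 between 129831154 and 130386874, and *Klra2* lies apart from them. Among 4 of them compared (*Klra4*, *Klra7*, *Klra8* and *Klra9*), the windows upstream of the start sites were identical at 58.8% (*Klra9* and *Klra7*) to 84.8% (*Klra4* and *Klra8*) of aligned bases, so some pairs were close and others were not. The window of *Klra3*, whose first exon bases were not found in a transcript, widened this range. It was identical at 90% with *Klra9* and 53.2% with *Klra7*. A close Ly49 pair and a pair of unrelated NK genes are printed. The 250 bases upstream of *Klra4* and *Klra8* (RefSeq, GRCm38.p6, minus strand, chr6:130067272-130067521 and chr6:130129899-130130148) were identical at 212 aligned bases, or 84.8%, and capitals mark their longest shared run of 27 bases, which 3 of 32851 windows hold. Besides the printed windows, the run lies in another, overlapping window of *Klra8*, so no other gene shares it.
Klra4: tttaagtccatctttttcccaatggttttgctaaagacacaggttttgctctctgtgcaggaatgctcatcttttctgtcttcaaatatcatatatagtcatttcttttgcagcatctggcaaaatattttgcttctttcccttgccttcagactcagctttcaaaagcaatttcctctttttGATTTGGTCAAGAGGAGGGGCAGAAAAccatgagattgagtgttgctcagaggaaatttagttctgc
Klra8: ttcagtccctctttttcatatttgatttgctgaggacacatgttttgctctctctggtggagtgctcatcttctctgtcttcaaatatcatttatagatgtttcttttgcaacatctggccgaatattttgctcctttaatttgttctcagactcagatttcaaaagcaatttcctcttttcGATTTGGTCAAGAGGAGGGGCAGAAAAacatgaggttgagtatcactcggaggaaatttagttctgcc
The windows of *Ncr1*, the marker gene, and *Gzma* (chr7:4337465-4337714, plus strand, and chr13:113100982-113101231, minus strand) were identical at 54.8% of the 250 bases, and capitals mark the Runx core (TGTGGT, or ACCACA on the other strand).
Ncr1: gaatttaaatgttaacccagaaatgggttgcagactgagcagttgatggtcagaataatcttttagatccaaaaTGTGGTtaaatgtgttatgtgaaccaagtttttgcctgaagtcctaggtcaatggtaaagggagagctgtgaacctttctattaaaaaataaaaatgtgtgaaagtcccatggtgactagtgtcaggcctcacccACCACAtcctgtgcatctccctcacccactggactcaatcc
Gzma: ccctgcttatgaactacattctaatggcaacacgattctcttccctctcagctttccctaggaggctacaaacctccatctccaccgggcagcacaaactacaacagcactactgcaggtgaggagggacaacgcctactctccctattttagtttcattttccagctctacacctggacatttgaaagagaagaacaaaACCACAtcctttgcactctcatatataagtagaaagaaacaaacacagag
The Runx core was present in 14% of the 32851 windows and the T-box core (GGTGTG, or CACACC) in 16.3%. Of the 12 genes that led in NK, 2 held the first (*Klre1* and *Gzma*) and 2 held the second (*Klrb1f* and *Samd3*). These matches describe letters only. Because Ly49 genes resemble each other, reads could be split between copies, and the value of a single Ly49 gene is uncertain to that extent.

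The inhibitory Ly49 genes differed among themselves. *Klra7* (Ly49G) was at 463 CPM in PEP-WT NK and 308 CPM in PEP-619WW NK, *Klra3* (Ly49C) at 254 and 193, and *Klra9* (Ly49I) at 154 and 365. *Klra1* (Ly49A) was at 259 and 43.0 CPM, *Klra5* and *Klra6* were at 14.3 to 33.1 CPM, and *Klra10* had 1 UMI in all. *Klra2* had 0 and 2 UMIs in NK barcodes and *Klra17* had none, too few to set against their levels of 0.439 to 19.1 CPM in effector CD8 T barcodes. *Klra4* was detected in 42% of PEP-WT and 44.4% of PEP-619WW NK barcodes, *Klra8* in 44% and 38.9% and *Klra7* in 46% and 47.2%. Each of these 3 genes was found in under 0.1% of B cell barcodes. Detection of a Ly49 gene was thus split among NK barcodes in both genotypes.

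**Figure D2:**
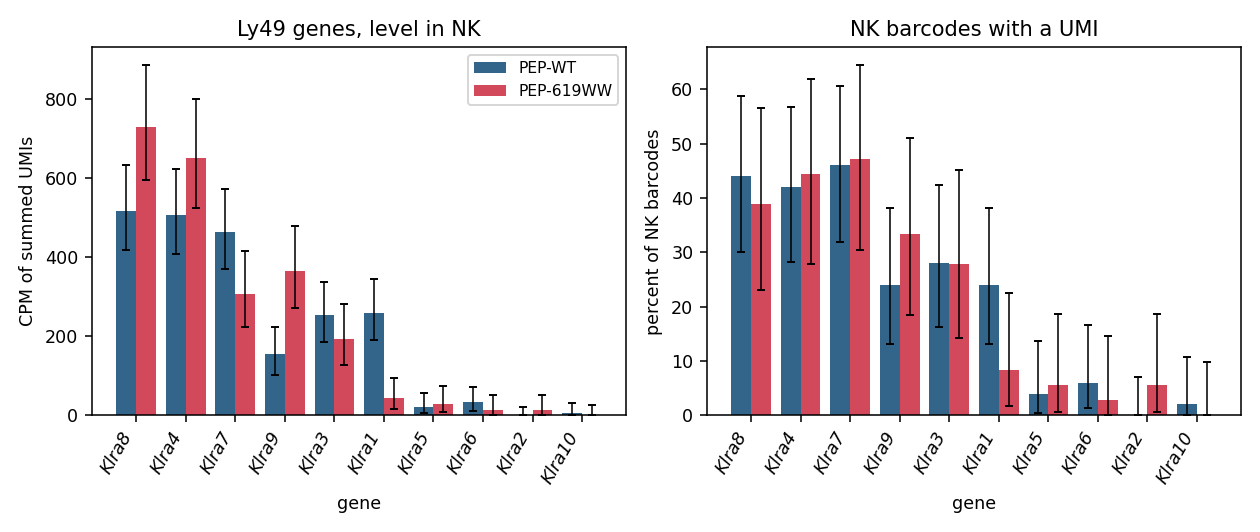
Left, CPM of the Ly49 genes in NK barcodes of both genotypes, with bars for the summed level and 95% counting intervals. Right, the percent of the 50 PEP-WT and 36 PEP-619WW NK barcodes with a UMI of each gene, with *Klra4* at 42% and 44.4%.

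As the plot of Ly49 levels and detection shows, at least 3 Ly49 genes were detected in 24 PEP-WT barcodes (48%) and 17 PEP-619WW barcodes (47.2%), and none in 8 of each genotype. *Klra8* and *Klra4* were detected together in 11 PEP-WT and 11 PEP-619WW barcodes, and neither was detected in 18 and 17. A barcode without a UMI need not be a cell without the receptor at these depths.

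Of the adaptors and kinases, 4 of 19 tested genes were called higher in NK and 1 lower. *Tyrobp* was at 2267 CPM in PEP-WT NK and 2494 CPM in PEP-619WW NK, against 300.3 and 174 CPM in effector CD8 T barcodes and 38.4 and 19.9 CPM in the limited ones. *Fcer1g* was at 2267 and 2243 CPM, against 469 and 291 CPM, and 126 and 86.9 CPM in the limited set. Myeloid cells also use both adaptors. *Lat2* and *Sh2d1b1* (EAT-2) were also higher, and *Lat*, the scaffold of T cell receptor signaling, was lower at 44.1 and 35.8 CPM against 196 and 176. The kinase gene *Lck* was at 193 and 229 CPM against 242 and 232, and was not called.

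Of the 20 cytotoxic granule and death ligand genes, 4 were called higher in NK and none lower, and against the limited CD8 barcodes 3 were higher and 1 lower, *Gzmc* (-2.61 and -2.78). *Gzma* was at 13482 CPM (PEP-WT) and 17034 CPM (PEP-619WW), against 997 and 404 CPM in effector CD8 T barcodes and 1608 and 740 CPM in the limited ones. Its log2 ratio was 3.76 (3.69 to 3.82) in PEP-WT and 5.40 (5.33 to 5.47) in PEP-619WW. *Prf1* was at 656 and 752 CPM against 190 and 167 CPM. *Fasl*, a death ligand, and *Ctsw*, which encodes cathepsin W, were higher at log2 ratios of 2.04 and 2.11, and 1.25 and 1.15. *Nkg7*, a granule protein gene, was at 2913 and 2859 CPM against 1488 and 1195 and was not called. *Gzmb*, which the CD8 rule required, was at 1611 and 1677 CPM in NK.

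Of the cytokine and chemokine genes, 2 of 12 were called higher. *Ccl5* was the most abundant of the group, at 26055 and 33724 CPM against 7376 and 7612 CPM in effector CD8 T barcodes. *Xcl1*, a chemokine that attracts cross-presenting dendritic cells, was at 270 and 150 CPM against 105 and 26.7. *Ifng* was at 149 and 86.0 CPM in NK against 242 and 260 CPM, with log2 ratios of -0.70 and -1.60, and was not called. NK barcodes thus held more *Ccl5* and *Xcl1* than effector CD8 T barcodes, but not more *Ifng*.

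Cytokine receptor genes were called higher for 5 of 17 genes, and none was lower. *Il2rb* was at 629 and 1025 CPM against 235 and 242 CPM, *Ifngr1* at 502 and 774 against 213 and 255, and *Il18rap*, the accessory chain of the IL-18 receptor, at 270 and 559 against 105 and 158. *Il7r* and *Ifnar1* were the others. Against the limited CD8 barcodes none of the 17 was called, so these calls depended on the choice of effector CD8 T barcodes. Among trafficking and adhesion genes, 5 of 21 were higher, among them *Itga2*, *Itgam* and *S1pr5*, and 2 were lower. *S1pr5*, which guides NK cells out of lymphoid tissue, was at 55.2 and 28.7 CPM against 10.9 and 3.43. The lower genes were *S1pr1*, the related receptor used by T cells, and *Cxcr6*, which had 2 and 1 UMIs in NK and was at 132 and 147 CPM in effector CD8 T barcodes.

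Of 28 tested transcription factor genes, 4 were higher and 5 lower in NK. *Tbx21* (T-bet), which drives NK maturation, was at 160 and 186 CPM against 58.3 and 54.1, and *Gata3*, *Irf8* and *Zeb2* were the other higher genes. *Eomes*, which separates NK cells from type 1 innate lymphoid cells, was at 60.7 CPM (log2 ratio 0.96) in PEP-WT and 215 CPM (3.30) in PEP-619WW and was not called. *Bcl11b*, a T cell commitment factor, had 0 and 1 UMIs in NK against 107 and 116 CPM, and *Batf*, *Irf4*, *Rora* and *Tox* were also lower. Among 18 maturation genes 8 were higher and 1 lower. *Itgam* (CD11b) was at 221 and 244 CPM against 43.4 and 40.9, and *Cma1*, a mast cell protease gene also transcribed in NK cells, at 204 and 186 CPM against 1.15 and 0.0879 CPM. *Ly6c2* was lower, at 612 and 638 CPM against 2066 and 2205. Of 11 genes linked to type 1 innate lymphoid cells, 1 was higher (*Il7r*) and 2 were lower (*Cxcr6* and *Rora*), and the integrin gene *Itga1* was detected in 2 barcodes of each genotype. *Il7r* was detected in 8 of 50 and 2 of 36 NK barcodes. Against the limited CD8 barcodes 2 of the 11 were higher and 2 lower, and *Il7r* was not called.

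**Figure D3:**
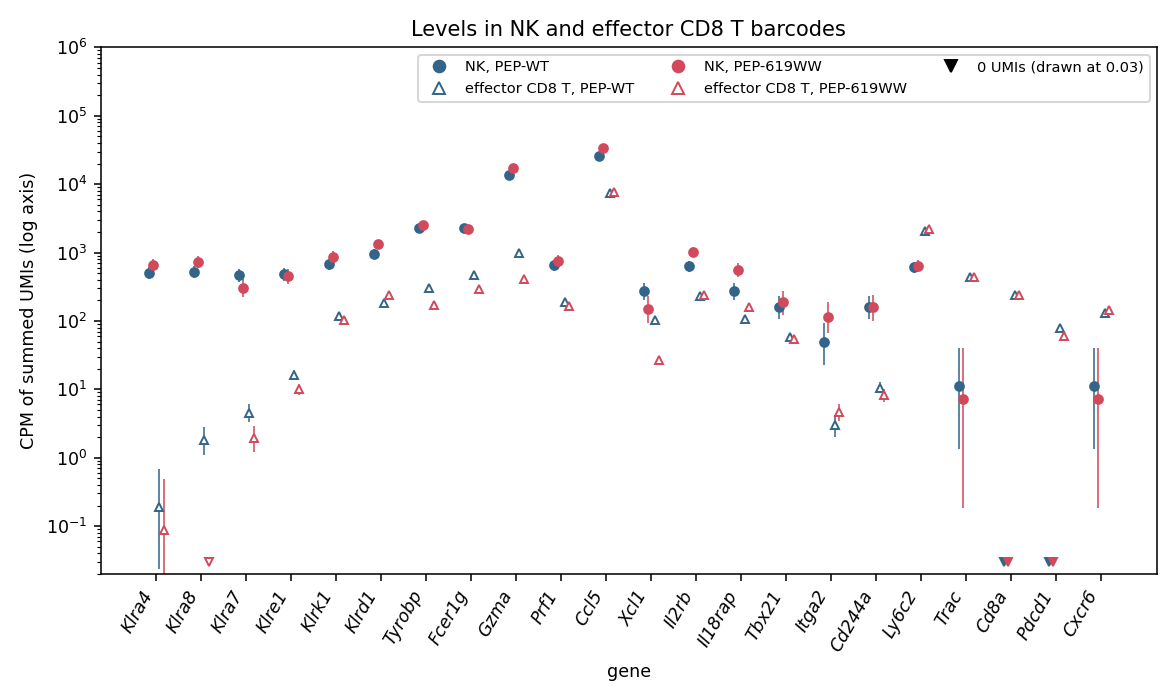
CPM of summed UMIs, on a log axis, for receptor, adaptor, effector and T cell genes in NK barcodes (circles) and effector CD8 T barcodes (open triangles) of each genotype, with 95% counting intervals, and downward marks for genes without a UMI. *Gzma* in NK lies at 13482 and 17034 CPM, above 997 and 404 CPM in effector CD8 T barcodes.

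T cell genes were low in NK barcodes, as the plot of levels by cell type shows. Of 16 tested, 10 were called lower and none higher. *Trac*, the constant gene of the T cell receptor alpha chain, had 2 and 1 UMIs in NK, and was at 444 and 435 CPM in effector CD8 T barcodes. *Cd8a*, *Cd4*, *Cd5* and *Cd6* had no UMI in NK. *Trbc2*, a beta chain constant gene, was at 265 and 394 CPM against 1322 and 1155, and *Trbc1* at 298 and 344 against 582 and 617 CPM. The beta chain constant genes were thus detected where *Trac* was nearly absent. *BE692007* was the other named gene that was lower in NK against both sets of effector CD8 T barcodes, besides *Trac* and *Cxcr6*. The rest of the 12 with the largest negative ratio were 8 immunoglobulin or joining chain genes (*Iglc1*, *Iglc3*, *Jchain*, *Iglv1*, *Ighg2b*, *Igkc*, *Ighg2c* and *Iglc2*) and the neutrophil granule gene *Ngp*. *Igkc* was at 965 and 7266 CPM in NK, 32180 and 46478 CPM in effector CD8 T barcodes and 718 and 983 CPM in the limited ones, and 8 of those 9 genes had the opposite direction on average against the limited set. The other, *Iglv1*, had no UMI in PEP-WT NK and so no average, and its log2 ratio against the limited set was 3.22 in PEP-619WW. The part of free or doublet-borne plasma cell RNA in these 9 genes was not tested.

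Genes of cell division separated the cells as well. Of 25 G2 and M phase genes, 17 were called lower in NK and none higher, with medians of -2.08 and -2.21 against 0.18 and 0.22 over all genes. Their summed level was 679 and 394 CPM in NK against 2904 and 2190 CPM in effector CD8 T barcodes. In NK, 62 of the 123 PEP-WT UMIs and 27 of the 55 PEP-619WW UMIs of these genes lay in 1 barcode of the library. The median was 0 UMIs per NK barcode in both genotypes. *Ube2c*, which drives exit from mitosis, was at 16.5 and 50.2 CPM against 291 and 190. *Mki67* was detected in 7 of 50 and 3 of 36 NK barcodes, and at least 5 UMIs of the G2 and M phase genes were found in 3 and 2. Of 22 S phase genes, 1 was lower (*Rrm2*), and of 16 glycolysis genes 1 was lower, *Gapdh*, at 519 and 537 CPM against 1459 and 1432. With 1.47% of all genes called lower, 1 call is too few to describe either group. Of 43 interferon-stimulated genes, 5 were called lower in NK (*Ifi27l2a*, *Ly6a*, *Gbp2*, *Isg20* and *Slfn1*) and none higher, whereas 3 were lower and 3 higher against the limited CD8 barcodes. *Ifi27l2a* was at 866 and 351 CPM in NK against 2712 and 1238 CPM. Effector CD8 T barcodes were deeper than NK barcodes, and with all barcodes at 1000 UMIs 68 genes were called higher and 34 lower in NK over the whole comparison.

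The NK barcodes also varied among themselves. *Gzma* ranged from 0 to 187 UMIs per barcode (median 44.5) in PEP-WT and from 0 to 186 (median 53) in PEP-619WW. *Gzma* and *Prf1* were detected together in 37 (74%) and 29 (80.6%) barcodes. *Ccl5* ranged from 0 to 293 UMIs (median 78) and from 0 to 426 (median 123). Transcripts of these effector genes were thus spread over most of the barcodes. *Ccl3* or *Ccl4* was detected in 32 and 24 barcodes, *Ifng* in 14 and 9 and *Xcl1* in 11 and 4. *Itgam* without *Cd27*, the pattern of mature NK cells, was detected in 19 and 11 barcodes, and *Cd27* in 4 and 7. These chemokine, cytokine and maturation transcripts were detected in part of the barcodes, and *Ccl4* was concentrated, with 128 of its 307 PEP-WT UMIs in 1 barcode.

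**Figure D4:**
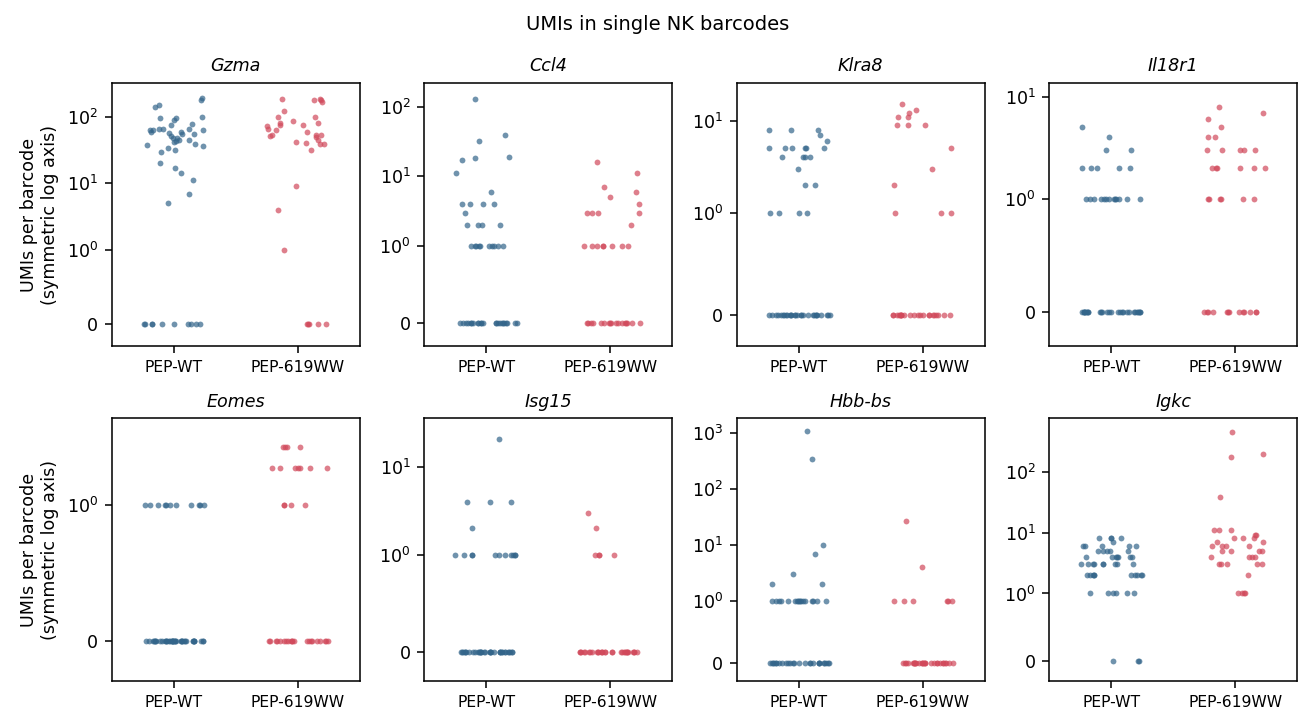
UMIs in each NK barcode, on a symmetric log axis, for single genes in the 50 PEP-WT and 36 PEP-619WW barcodes, where each point is a barcode. *Gzma* UMIs spread over most barcodes up to 187 and 186, while 1089 of the 1471 *Hbb-bs* UMIs of PEP-WT lie in 1 barcode.

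PEP-619WW NK barcodes were then compared with PEP-WT NK barcodes, to describe the transcript levels of NK cells that carry the variant phosphatase. With 1 library of pooled mice per genotype, genotype and library cannot be told apart. The intervals treat UMIs as independent counts, and so leave out the variation between mice and between barcodes. Genes were called when the ratio was at least 2-fold and its interval lay past 0. Of 2428 tested genes, 170 or 7.0% were called, 71 (2.92%) higher and 99 (4.08%) lower in PEP-619WW. When the NK barcode with the most UMIs of a gene was left out in each library, 56 of the 71 and 65 of the 99 were still called. A ratio could move past its own interval in this way, as that of *Igkc* did, from 2.91 (2.68 to 3.15) to 2.16. Ratios in effector CD8 T barcodes with the NK limits and in all other barcodes of the same libraries are given where they help to read a value, and differences between cell types were not tested. A summed level cannot tell fewer positive cells from less RNA per cell.

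*Ptpn22* itself was at 182 CPM (33 UMIs in 22 barcodes) in PEP-WT and 251 CPM (35 UMIs in 21 barcodes) in PEP-619WW NK, a log2 ratio of 0.46 (-0.27 to 1.19). The ratio did not distinguish the genotypes at this depth. Among 9 tested genes of PEP partners and targets, *Cbl*, a ubiquitin ligase gene, was called higher and *Ptpn6* (SHP-1) lower. With 2.92% of all tested genes called higher and 4.08% lower, 1 call each way is too few to describe the group. *Cbl* was at 71.7 CPM in 12 barcodes and 236 CPM in 25 barcodes, or 10.2% and 28.6% of barcodes at 1000 UMIs, with a log2 ratio of 1.72 (0.76 to 2.77), against 0.14 in effector CD8 T and -0.05 in other barcodes. *Ptpn6* had 20 UMIs in 11 PEP-WT barcodes and 3 UMIs in 1 PEP-619WW barcode, a log2 ratio of -2.36. *Csk* and *Lck*, which encode kinases of the same pathway, were not called, with log2 ratios of 0.32 and 0.25.

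The summed levels of the genes of both IL-18 receptor chains were higher in PEP-619WW NK. *Il18r1* was at 210 CPM (148 to 288) in PEP-WT and 480 CPM (372 to 610) in PEP-619WW, a log2 ratio of 1.20 (0.60 to 1.81). *Il18rap* was at 270 CPM and 559 CPM, a log2 ratio of 1.05 (0.51 to 1.59). They lie next to each other on chromosome 1 (GRCm38, 40465552 to 40500854 and 40515362 to 40551705). *Il18r1* was detected in 22 of 50 and 23 of 36 barcodes, 44% against 63.9%, and in 16.3% and 42.9% at 1000 UMIs per barcode, while 3.20% and 5.77% of B cell barcodes held a UMI. The difference in detection was 19.9 points (-1.41 to 38.6), or 26.5 points (6.97 to 44.6) at equal depth. Ratios above 0 were also found outside NK cells. They were 0.81 for *Il18r1* and 0.67 for *Il18rap* in effector CD8 T barcodes and 1.03 and 0.89 in other barcodes. *Il18r1* and *Il18rap* were the 2 called among 9 cytokine receptor genes tested, against 2.92% of all tested genes called higher. *Il2rb* (0.70, 0.34 to 1.07) and *Ifngr1* (0.62, 0.21 to 1.04) had intervals above 0 without reaching 2-fold. The larger share of PEP-WT UMIs in barcodes without *Gzma* was not taken out of the NK ratios of these receptor genes.

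Of 15 transcription factor genes tested, 3 were called higher in PEP-619WW and none lower, against 2.92% and 4.08% of all tested genes. The lack of lower calls is thus no result about the group. *Eomes* had 11 UMIs in 11 PEP-WT barcodes (60.7 CPM) and 30 UMIs in 15 PEP-619WW barcodes (215 CPM), a log2 ratio of 1.82 (0.79 to 2.97). The ratio was -0.55 in effector CD8 T and -0.76 in other barcodes. *Eomes* was detected in 22% and 41.7% of NK barcodes, a difference of 19.7 points (0.011 to 38.3), against 1.09% and 0.705% of B cell barcodes. At 1000 UMIs per barcode the shares were 10.2% and 14.3%, the difference was 4.08 points (-9.98 to 20.2) and the log2 ratio was 0.97, under the 2-fold limit. PEP-619WW NK barcodes were the deeper ones, and the *Eomes* difference was smaller at equal depth. Whether depth was the reason was not tested. The larger share of PEP-WT UMIs in barcodes without *Gzma*, 34.9% against 9.34%, was not taken out of the *Eomes* ratio. *Lef1*, a factor known from naive T cells, had 7 and 17 UMIs (log2 ratio 1.66, 0.31 to 3.17), and *Gata3* had 10 and 18 (1.23, 0.03 to 2.50). *Tbx21*, with 29 and 26 UMIs, had a log2 ratio of 0.22 (-0.60 to 1.03).

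Among 10 activating and 10 inhibitory receptor genes tested, *Klra9* and *Klrb1b* were called higher and *Klra1* and *Cd160* lower in PEP-619WW. Over all tested genes 2.92% were called higher and 4.08% lower. *Klra9* was at 154 and 365 CPM, a log2 ratio of 1.24 (0.55 to 1.96), and was detected in 12 barcodes of each genotype, while its ratio in other barcodes was -2.54. Its means per barcode were 196 and 371 CPM. The limit given above on reads split between Ly49 copies holds for *Klra9*, and *Klra3* was at 254 and 193 CPM. *Klra1* was at 259 CPM in 12 PEP-WT barcodes and 43.0 CPM in 3 PEP-619WW barcodes, a log2 ratio of -2.59 (-4.11 to -1.36). *Klrb1b*, an inhibitory receptor gene, had 16 and 25 UMIs, and *Cd160* had 35 and 7. *Klra4* (0.36, -0.07 to 0.80), *Klra8* (0.50, 0.08 to 0.92) and *Klra7* (-0.59, -1.15 to -0.04) were not called. Their means per barcode in PEP-WT and PEP-619WW were 617 and 641 CPM, 723 and 710 CPM, and 529 and 293 CPM. The Ly49 genes thus had ratios in both directions.

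None of 11 tested cytotoxic genes was called in either direction, which with 7.0% of all genes called is no result about the group. *Gzma* was at 13482 and 17034 CPM, a log2 ratio of 0.34 (0.26 to 0.42). Per barcode it was not higher in PEP-619WW, with medians of 17406 and 17143 CPM and means of 15956 and 15521 CPM, and the PEP-WT barcodes without *Gzma* held a larger share of the UMIs, as given above. The *Gzma* ratio was -1.12 in effector CD8 T and -0.88 in other barcodes. *Prf1* (0.20, -0.20 to 0.59), *Gzmb* (0.06, -0.20 to 0.31) and *Nkg7* (-0.03, -0.22 to 0.16) had intervals that included 0. Mean *Prf1* per barcode was 824 CPM in PEP-WT and 672 CPM in PEP-619WW. For *Gzmb*, 72 of the 234 PEP-619WW UMIs came from 1 barcode, and without the highest barcode of each library the ratio was -0.32 (-0.61 to -0.03). The adaptor genes *Tyrobp* and *Fcer1g* had log2 ratios of 0.14 and -0.02, and none of 12 adaptor genes was called. Means per barcode in PEP-WT and PEP-619WW were 2601 and 2230 CPM for *Tyrobp* and 2679 and 2227 CPM for *Fcer1g*. Among 7 cytokine and chemokine genes, *Ccl4* was called lower, at 1694 and 509 CPM, a log2 ratio of -1.73 (-2.13 to -1.36), and -1.33 without its highest barcode in each library. The *Ccl4* ratio was 0.31 in effector CD8 T and 0.46 in other barcodes. Per NK barcode the *Ccl4* median was 1 UMI in both genotypes, and *Ccl4* was detected in 27 of 50 and 19 of 36 barcodes. The lower sum was thus not seen in the typical barcode. *Ccl5* (0.37), *Ccl3* (-0.84), *Xcl1* (-0.84) and *Ifng* (-0.79) were not called. Without their highest barcodes *Xcl1* and *Ltb* were also called lower, so that 3 of the 7 were, against 82 of all 2428 tested genes.

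Transcripts of interferon-stimulated genes in NK barcodes were lower in PEP-619WW. Of 23 tested, 6 were called lower and none higher, and 20 had a ratio below 0, with a median of -0.54 against -0.04 over all genes. Over all genes 4.08% were called lower and 2.92% higher, so the lack of higher calls is no result about the group. Their summed level was 5417 CPM in PEP-WT and 3476 CPM in PEP-619WW, a log2 ratio of -0.64 (-0.80 to -0.48). The same sum had a log2 ratio of -0.61 in effector CD8 T barcodes and -0.60 in other barcodes, so the lower level was shared by the cells of the library. B cell barcodes, which transcribe these genes too, held 8863 and 6141 CPM, above the NK barcodes, and the part of free RNA in the NK values was not tested. *Isg15*, a ubiquitin-like protein gene, was at 254 CPM in 16 barcodes and 64.5 CPM in 6 barcodes, a log2 ratio of -1.98 (-3.19 to -0.93). Of its 46 PEP-WT UMIs 21 came from the deepest barcode, and without the deepest barcodes the ratio was -1.15. At 1000 UMIs per barcode its shares of 6.12% and 5.71% lay below those of B cell barcodes, 14.8% and 5.99%, so that the difference is not read as expression. *Ifi27l2a* was at 866 and 351 CPM (-1.30, -1.80 to -0.83), and *Bst2*, which encodes tetherin, at 337 and 122 CPM (-1.47, -2.33 to -0.67). *Ifi213*, *Zbp1* and *Rsad2* were the other called genes, and 17 of the 21 *Rsad2* UMIs of PEP-WT came from 1 barcode. Without the highest barcode of each gene, 4 of the 23 genes were called lower, against 82 of all 2428 tested genes.

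**Figure D5:**
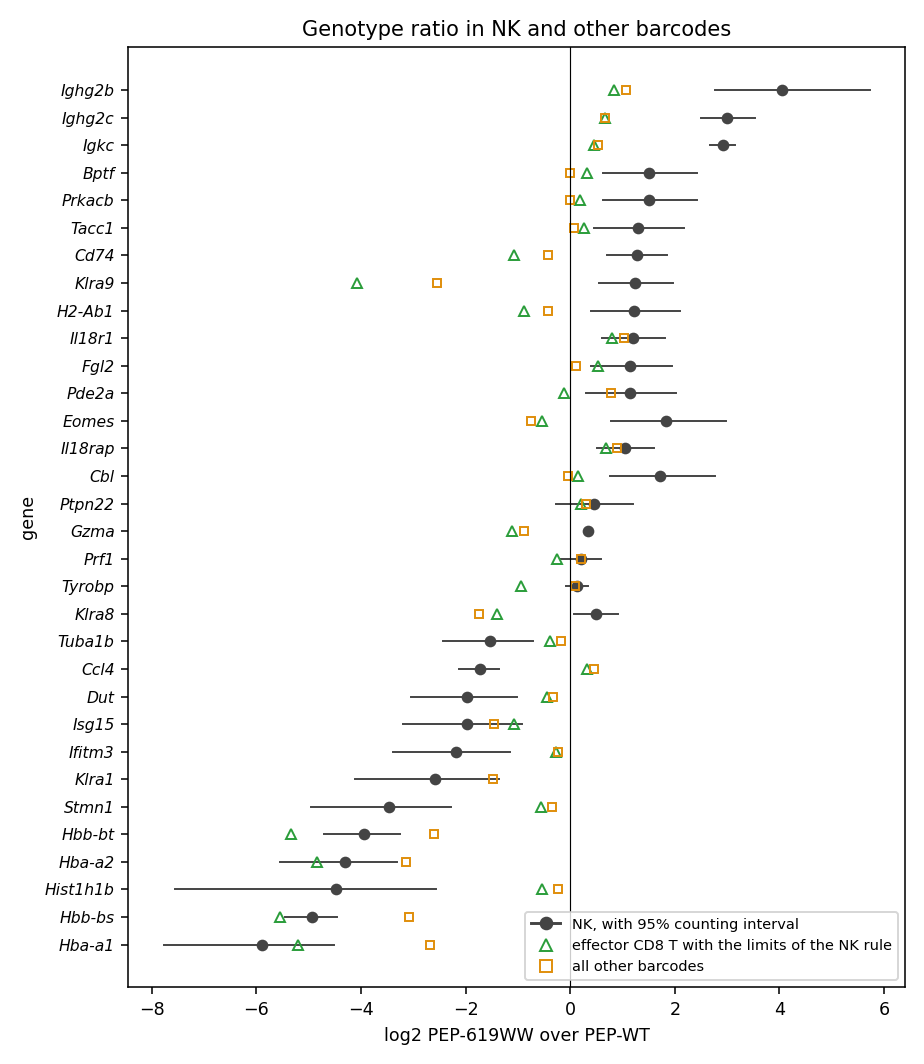
The log2 ratio of PEP-619WW to PEP-WT for named genes in NK barcodes (filled circles with 95% counting intervals), in effector CD8 T barcodes with the NK limits (triangles) and in all other barcodes (squares). *Il18r1* lies above 0 in all 3, at 1.20, 0.81 and 1.03, whereas *Eomes* lies at 1.82 in NK and at -0.55 and -0.76 elsewhere. With barcodes at equal depth the *Eomes* ratio in NK was smaller.

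Many of the largest genotype ratios in NK barcodes were those of genes that mark other cells, which the plot of genotype ratios sets beside the rest. Hemoglobin genes were lower in PEP-619WW. *Hbb-bs* was at 8115 CPM in PEP-WT and 265 CPM in PEP-619WW, a log2 ratio of -4.94, but 1089 of the 1471 PEP-WT UMIs came from 1 barcode, and the ratio was -5.54 in effector CD8 T and -3.08 in other barcodes. *Hba-a1* (-5.89), *Hba-a2* (-4.31) and *Hbb-bt* (-3.94) were also lower in PEP-619WW. Immunoglobulin genes were higher in PEP-619WW. *Igkc* was at 965 and 7266 CPM (2.91), *Ighg2c* at 210 and 1670 CPM (2.99) and *Ighg2b* at 27.6 and 459 CPM (4.06). Of the 1014 *Igkc* UMIs of PEP-619WW, 441 came from 1 barcode and 668 from the 7 barcodes with a single marker UMI. *Cd74*, an antigen presentation gene, had a log2 ratio of 1.27 with 48 of its 76 PEP-619WW UMIs in 1 barcode, and 0.23 (-0.56 to 1.02) without the highest barcodes. *H2-Ab1*, an MHC class II gene, had 21 of 36 PEP-619WW UMIs in 1 barcode. The summed marker lists moved with these genes. Erythroid markers (9 and 8 of 10 detected) were at 13598 and 788 CPM in NK of PEP-WT and PEP-619WW, with up to 1764 and 55 UMIs in a barcode. Plasma cell markers (9 and 10 of 10) were at 1484 and 9868 CPM, with up to 14 and 587 UMIs in a barcode. B cell markers (8 and 6 of 9) were at 375 and 867 CPM, with 50 of the 121 PEP-619WW UMIs in 1 barcode. Both lists of lymphoid markers were thus higher in PEP-619WW NK. With at least 2 marker UMIs the *Cd74* ratio turned to -1.66. Neutrophil markers (7 and 6 of 10) were at 110.3 and 459 CPM, with 37 of the 64 PEP-619WW UMIs in 1 barcode, and monocyte markers (10 and 11 of 13) at 976 and 1104 CPM. *Csf1r*, which marks macrophages, had no UMI in NK, while *C1qa*, another macrophage gene, had 10 UMIs in PEP-WT. Most monocyte marker UMIs of PEP-WT came from *Ly6c2* (111 of 177) and *Ccr2* (28), which NK cells also transcribe. The part of other cells in these ratios was not tested.

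The other named genes higher in PEP-619WW were less concentrated. *Bptf*, a chromatin remodeling factor gene, and *Prkacb*, a catalytic subunit gene of protein kinase A, each had 17 UMIs in 17 PEP-WT barcodes and 37 UMIs in PEP-619WW (24 and 23 barcodes), with an interval of the log2 ratio from 0.63 to 2.42. *Tacc1* (1.30), *Fgl2* (1.15) and *Pde2a* (1.14), a phosphodiesterase gene, had no more than 7 UMIs in any barcode. *Ccr2*, a chemokine receptor gene, had 28 and 44 UMIs (1.03), of which 12 came from 1 PEP-619WW barcode, and was not called without the highest barcodes. Among the named lower genes, genes of chromatin, DNA synthesis and microtubules were found in few barcodes. *Hist1h1b*, a linker histone gene, had 58 PEP-WT UMIs, 46 of them in the deepest barcode, against 2 in PEP-619WW. Its log2 ratio of -4.48 was -3.26 without the deepest barcodes and turned to 0.092 with limits on *Cd79b*, *Ms4a1*, *Csf1r*, *Ly6g* and *Hbb-bs*. *Stmn1* (-3.46), *Dut* (-1.97) and *Tuba1b* (-1.53) were detected in 9 to 12 PEP-WT and 4 to 9 PEP-619WW barcodes. Of the 56 *Dut* UMIs of PEP-WT 26 came from the deepest barcode, and at 1000 UMIs per barcode its ratio turned to 0.22. *Ifitm3*, an interferon-inducible membrane protein gene, had 53 and 9 UMIs, a log2 ratio of -2.18, with 20 of the 53 in 1 barcode. *Mki67* (25 and 3 UMIs, 14 of the 25 in the deepest barcode) and *Top2a* (24 and 8) were called lower, with log2 ratios of -2.68 and -1.21. Without the highest barcode of each gene the ratios were -2.08 and -1.21, with intervals that included 0.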

How the data were processed

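The authors sorted live CD45+ splenocytes and made the counts with Cell Ranger on the mm10 mouse transcriptome (version 6.0.0 in the submitters' processing notes, another in the Methods). The deposited count files hold whole UMI counts for 32285 genes, and 32158 of these matched a symbol. Run 1 was used as the NK rule sets it. Run 2 holds the barcode numbers of the Methods, the origin of run 1 is not stated there, and replicates were not made of the runs. The members and gene lists were chosen with earlier results of these data known.

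UMIs were summed over the barcodes of a cell type and library and scaled to CPM. Log2 ratios have exact conditional binomial 95% intervals for 2 Poisson counts, and shares have exact or Newcombe intervals. Genes needed 20 UMIs over the compared groups. Genes of the rules were not counted. Named genes were, per direction, the 12 largest ratios among called genes (at least 100 UMIs for NK against CD8, 50 for genotype), examples from 26 lists, and *Ptpn22*. Scrublet in scanpy marked 1 of 14821 and 0 of 8576 barcodes, which is too few for it to have worked, so doublets were kept and the 5% highest scores were removed as an alternative. Other alternatives changed the marker minimum, lineage limits, CD8 rule, depth, scaling, filters and fold. The estimator was run on simulated Poisson counts, the model that its intervals assume. The simulation held no variation between barcodes, so it cannot show how the intervals behave with it. Python 3.11.15, numpy 2.4.6, scipy 1.17.1 and scanpy 1.11.5 were used. Promoter windows came from RefSeq (GRCm38.p6). Some members of the gene lists are not reported here by name.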

Additional observations from a re-analysis of the deposited data

Results flagged for a closer look

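The second deposited run of each genotype was not used in the comparisons above, and the NK rule found many more barcodes in 1 of its libraries. In that run 534 of 11029 PEP-619WW barcodes met the rule, or 4.84% (4.45 to 5.26, exact Clopper-Pearson interval), against 1 of 9539 PEP-WT barcodes. The PEP-619WW barcodes of the second run held *Gzma* at 6115 CPM (17034 in the first run), *Ccl5* at 6583 CPM (33724), *Xcl1* at 785 CPM (150) and *Eomes* at 336 CPM (215). *Tyrobp* was at 2536 CPM against 2494 CPM, and *Klrk1* at 870.1 CPM against 867 CPM. *Igkc* was at 6.42 CPM against 7266 CPM, and *Hbb-bs* at 0.584 CPM against 265 CPM. The effector CD8 T rule found 17 PEP-WT and 149 PEP-619WW barcodes in the second run. How the runs relate is not stated in the labels or Methods. The barcode numbers of the Methods are those of the second run, and the origin of the first run was not settled. The tissue of the second run was not tested either.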

How the results depend on the processing

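With 1 library per genotype, depth and the number of NK barcodes limited the genotype comparison, and no setting adds replicate error. No paired analysis was possible because each genotype had 1 library. Of the counts and shares that answer a comparison, recomputed under the alternatives, 66 stayed within their limits and 23 moved. For the genotype comparison, genes higher and lower in PEP-619WW numbered 45 and 55 with at least 2 marker UMIs, 35 and 44 with limits on *Cd79b*, *Ms4a1*, *Csf1r*, *Ly6g* and *Hbb-bs*, 14 and 13 with barcodes thinned to 1000 UMIs, 118 and 153 by the mean over barcodes, 158 and 173 without a filter, 5 and 11 at 100 UMIs or more, and 28 and 192 in the second run, which sets 534 PEP-619WW barcodes against a single PEP-WT barcode and so says nothing about stability. At 1.5-fold 115 were higher, and 58 were lower without the deepest NK barcode of each library, an alternative chosen after seeing the data, as was leaving out the highest barcode of each gene. NK against effector CD8 T barcodes gave 68 higher and 34 lower when thinned, 638 and 316 by the mean over barcodes, and 266 lower at 1.5-fold. The share difference was 4.83 points in the second run and -0.894 as NK barcodes per 100 effector CD8 T barcodes. Directions turned for *Cd74* (-1.66) and the summed G2 and M phase genes (0.35) with at least 2 marker UMIs, and for *Hist1h1b* (0.092), the activating receptor sum (-0.025) and the G2 and M phase sum (0.38) with the added limits. They turned for *Dut* (0.22), the cytotoxic sum (-0.042) and the transcription factor sum (-0.0091) when thinned, and for the G2 and M phase sum (0.069) without the deepest barcodes. Against the limited effector CD8 T barcodes, *Iglc1* (0.90), *Iglc3* (0.088), *Jchain* (1.24), *Ighg2b* (1.57), *Igkc* (1.66), *Ngp* (1.28), *Ighg2c* (1.45) and *Iglc2* (1.12) turned in mean log2 ratio. Apart from what the limits and thinning remove by construction, the cause was not tested. Of the other values recomputed, 830 stayed within their limits and 126 moved in size.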
